A study of Mus musculus with 12 samples.

Results

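The Ifit family is the set of genes for the interferon-induced proteins with tetratricopeptide repeats. Ifit1 (Entrez Gene 15957), Ifit2 (15958), Ifit3 (15959), Ifit3b (667370) and Ifit1bl1 (667373) were found by their mouse symbols through the Entrez identifiers of the expression table, which makes 5 of the 17571 genes listed. RNA had been sequenced from L929 cells, an established fibroblast line from subcutaneous connective tissue of a C3H/An mouse, in 4 groups of 3 libraries. Mock cells received DMSO alone. The pEGFP-N1 group received DMSO and then pEGFP-N1, a plasmid that drives EGFP from the CMV promoter. The BX795 group received 0.5 µM BX795, an inhibitor of the kinase TBK1, without plasmid, and the BX795 plus pEGFP-N1 group received the inhibitor for 1 h before the plasmid. Plasmid was left on the cells for 6 h. By the paper's methods, plasmid was delivered with a Lipofectamine reagent. No group is labelled as reagent without plasmid, so effects of plasmid and reagent cannot be told apart. All 4 groups are the same line without a genetic change, and the labels do not say whether the 3 libraries of a group came from separate cultures, so a p-value here measures the spread between these libraries, which may be technical.

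Ifit proteins are cytoplasmic RNA-binding proteins. Ifit1 binds RNA whose cap lacks the methyl group that cellular messages carry and blocks its translation, and some family members form complexes with each other. DNA in the cytoplasm is sensed by cGAS, which acts through STING and TBK1 to turn on type I interferon genes, and interferon then acts through its receptor, the kinases JAK1 and TYK2 and transcription factors that include STAT2 and IRF9, which bind interferon-stimulated response elements in front of genes such as those of the Ifit family. In fibroblasts these genes are among the most inducible by interferon, and some can also be switched on directly by interferon regulatory factors.

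Before any comparison, 2 libraries stood against their labels for interferon-induced genes. The library labelled pEGFP-N1 replicate 2 had levels near those of the libraries without plasmid (mock or BX795). The library labelled BX795 plus pEGFP-N1 replicate 1 had levels like those of pEGFP-N1 replicates 1 and 3. Genes outside the interferon response bear on the same labels. Errfi1, a feedback inhibitor of the EGF receptor, had 27.72, 24.49 and 26.08 FPKM in mock replicates 1 to 3 and 14.76, 15.15 and 14.77 FPKM in the BX795 libraries. It had 15.43 FPKM in the library labelled pEGFP-N1 replicate 2 against 18.45 and 19.21 FPKM in pEGFP-N1 replicates 1 and 3, and 18.80 FPKM in the library labelled BX795 plus pEGFP-N1 replicate 1 against 15.28 and 16.98 FPKM in replicates 2 and 3. Epha2, an ephrin receptor, had 22.01 FPKM in the library labelled BX795 plus pEGFP-N1 replicate 1 against 16.49 and 16.82 FPKM in the other two of its group, but 20.16 FPKM in the library labelled pEGFP-N1 replicate 2, close to the 22.47 and 21.66 FPKM of its group. Abca1, a cholesterol exporter gene, did not separate the 2 libraries, at 1.57 FPKM against 1.56 and 1.5 FPKM and at 1.42 FPKM against 1.07 and 1.26 FPKM. Fas, a gene near the Ifit cluster, and the feedback gene Socs3 were not picked for this check and are given by library below. In both libraries each of them lay outside the range of the other libraries of the group. Errfi1, Epha2 and Abca1, picked from earlier results of these data, fell with BX795 against mock by 0.77 (Errfi1), 0.78 (Epha2) and 0.74 (Abca1) in log2(FPKM + 1), with adjusted p-values from limma of 0.0109, 0.0160 and 0.0209. The calls were kept in 6, 6 and 4 of the 12 fits that left out a library, and were lost without any 1 mock or BX795 library, and for Abca1 also without pEGFP-N1 replicate 1 or 3. In the fit without the 2 libraries together all 3 passed, with limma adjusted p-values of 4.66e-05, 6.38e-05 and 8.52e-04. They were also lower with pEGFP-N1 than in mock in that fit, by differences of -0.45, -0.45 and -0.56 (limma adjusted p 0.00334, 0.00612 and 0.0152). The reason for the levels of the 2 libraries was not tested. Levels below are therefore given by library, the tests of the members with and without these 2 libraries, and the other genes by their counts of calls in both fits. For every gene whose level in the 2 libraries went against their labels, upward or downward, leaving them out selects on the outcome in comparisons of the plasmid groups, so such p-values describe the 10 libraries kept and are not independent of the choice. FPKM, which counts fragments per kilobase of exon relative to all mapped reads, is a level per length, so levels can be compared between genes, but it keeps no read total and the depth of the libraries is unknown. Of 10 fibroblast markers, 9 were at 1 FPKM or more in every library and Thy1 was not. Of 6 macrophage markers, Cd68 was at 111.37 to 137.67 FPKM, Cd14 at 0.38 to 1.25 FPKM and Lyz2 at 0.17 to 0.71 FPKM, while Ptprc, Adgre1 and Csf1r reached at most 0.07 FPKM, and 0 of 4 endothelial and 0 of 4 epithelial markers reached 1 FPKM in any library. In bulk RNA, fewer cells expressing a gene and less RNA in each cell cannot be told apart.

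The family lies in 1 cluster of 99.3 kb on mouse chromosome 19 (GRCm38, GENCODE coordinates). Ifit2 lies at chr19:34550694-34576419, Ifit3 at chr19:34583531-34588731, Ifit3b at chr19:34607970-34613401 and Ifit1 at chr19:34640871-34650009, all on the plus strand. Ifit1bl1, at chr19:34592891-34601956, is on the minus strand between Ifit3 and Ifit3b. Ifit1bl2, a further family gene that was not among those listed above and is given as a neighbour, lies at chr19:34617049-34640743 on the minus strand, and its start site is 146 bases from that of Ifit1 in RefSeq.

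**Figure D1:**
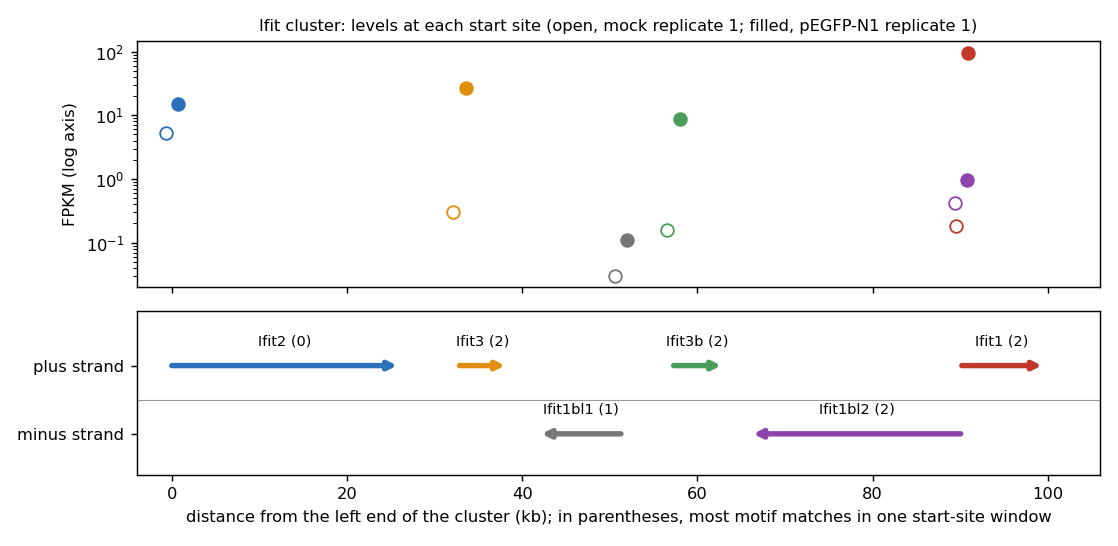
The lower panel places each gene by its distance in kb from the left end of the cluster, with arrows in the direction of transcription and, in parentheses, the most matches to the element core (GAAA, 2 bases, GAAA) in the 250 bases before any of its RefSeq start sites. The upper panel gives FPKM on a log axis at the start of each gene in mock replicate 1 (open) and pEGFP-N1 replicate 1 (filled). Ifit2, with 0 matches, is the highest of the 6 genes in mock replicate 1 at 5.18 FPKM, and Ifit1 is the highest in pEGFP-N1 replicate 1 at 96.67 FPKM.

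The promoters are shown because the members differed in how far their levels moved between libraries. The core of the interferon-stimulated response element was searched on both strands as GAAA, then 2 bases of any kind, then GAAA (which reads as TTTC, 2 bases and TTTC from the other strand) in the 250 bases before each RefSeq start site (GRCm38.p6, plus strand for these 4 genes), and matches are in capitals. A match is a description of these letters and not evidence of binding.
Ifit1, chr19:34640639-34640888: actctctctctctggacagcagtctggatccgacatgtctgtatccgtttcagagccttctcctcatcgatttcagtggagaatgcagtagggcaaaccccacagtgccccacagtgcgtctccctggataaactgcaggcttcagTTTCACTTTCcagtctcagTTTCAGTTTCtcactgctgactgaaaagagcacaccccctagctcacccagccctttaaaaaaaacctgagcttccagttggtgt
Ifit3, chr19:34583279-34583528: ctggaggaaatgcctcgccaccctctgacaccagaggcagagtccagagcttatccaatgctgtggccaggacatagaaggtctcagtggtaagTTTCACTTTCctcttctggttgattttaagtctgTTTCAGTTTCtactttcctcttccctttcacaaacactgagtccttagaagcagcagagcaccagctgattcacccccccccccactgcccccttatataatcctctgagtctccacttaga
Ifit3b, chr19:34607707-34607956: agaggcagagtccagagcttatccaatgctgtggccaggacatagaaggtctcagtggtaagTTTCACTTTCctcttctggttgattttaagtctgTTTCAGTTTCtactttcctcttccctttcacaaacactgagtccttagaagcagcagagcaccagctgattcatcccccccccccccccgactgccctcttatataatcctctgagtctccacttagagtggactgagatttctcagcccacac
Ifit2, upstream start site, chr19:34550444-34550693: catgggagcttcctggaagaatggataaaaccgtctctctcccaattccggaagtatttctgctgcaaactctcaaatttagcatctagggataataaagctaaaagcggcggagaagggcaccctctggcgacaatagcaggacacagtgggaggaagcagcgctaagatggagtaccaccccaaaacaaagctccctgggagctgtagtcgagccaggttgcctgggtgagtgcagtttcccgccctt

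Ifit1, Ifit3 and Ifit3b each held 2 matches. They lay 104 to 95 and 85 to 76 bases before the start site of Ifit1, 156 to 147 and 122 to 113 bases before that of Ifit3, and 188 to 179 and 154 to 145 bases before that of Ifit3b. All 3 genes carried TTTCACTTTC followed by TTTCAGTTTC. Ifit2 held 0 matches in this window and 0 in the window of its other start site. Ifit1bl1 held 1 match in each of its 2 windows, and Ifit1bl2 held 2 in the window that it shares with Ifit1 over 145 bases. Of 32851 RefSeq promoter windows of the same length, 2.98% held at least 1 match and 0.180% held 2 or more. No match in a window says only that these letters are not in it.

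Ifit3 and Ifit3b were so alike that reads could be shared between them. Their coding sequences were 1209 bases each and were identical at 1198, with 11 mismatches and a longest identical run of 329 bases. Of the 31-base words of all Ifit3 transcripts, 61.8% also occurred in Ifit3b transcripts, and 54.1% of those of Ifit3b occurred in Ifit3 transcripts. Their promoter windows aligned with 217 identical bases and 1 mismatch. The 150 bases from coding position 139 to 288 (GENCODE transcripts, GRCm38) are shown for both genes, with the 4 bases that differ in capitals, to show how sparse the distinguishing bases are.
Ifit3: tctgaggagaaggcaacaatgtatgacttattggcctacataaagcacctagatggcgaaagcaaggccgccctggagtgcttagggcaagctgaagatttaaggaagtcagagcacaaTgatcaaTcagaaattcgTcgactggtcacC
Ifit3b: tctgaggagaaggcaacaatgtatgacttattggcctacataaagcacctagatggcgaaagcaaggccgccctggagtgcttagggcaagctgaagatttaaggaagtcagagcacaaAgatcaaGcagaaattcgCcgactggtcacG

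The authors estimated levels with RSEM, which divides reads that align to several genes between them, so the levels of Ifit3 and Ifit3b are uncertain against each other, and their sum is given beside them. Ifit2 shared 0% of its 31-base words with transcripts of any other gene and Ifit1 shared 10.5%, including 9.16% found in Ifit1bl2 and 5.23% found in Ifit1bl1. Outside the Ifit3 pair, coding sequences of family genes were identical at 71.4% to 89.9% of aligned bases.

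Ifit1 had the widest range of levels. In mock replicates 1 to 3 its level was 0.18, 0.20 and 0.20 FPKM, and in the 3 libraries that carry the pEGFP-N1 label it was 96.67, 0 and 95.24 FPKM. The BX795 libraries had 0.45, 0.04 and 0.11 FPKM, and the levels were 92.64, 0.17 and 0.57 FPKM after BX795 plus pEGFP-N1. Thus 3 libraries lay between 92.64 and 96.67 FPKM and the other 9 at or below 0.57 FPKM, with no library in between. The ratio of those 3 libraries to the mock mean was 479 or more, which rests on mock levels near the low end of the table.

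Ifit2 was the member with a clear level in every library. Mock cells had 5.18, 5.45 and 4.78 FPKM (mean 5.14 ± 0.337, SD, n = 3) and the pEGFP-N1 libraries 15.19, 4.80 and 15.24 FPKM (11.7 ± 6.01). Libraries with BX795 alone had 4.51, 4.45 and 4.92 FPKM (4.63 ± 0.256), and its levels were 13.85, 4.17 and 5.12 FPKM (7.71 ± 5.34) after BX795 plus pEGFP-N1. The same 3 libraries were high, at 2.70 to 2.97 times the mock mean, and the other 9 spanned 4.17 to 5.45 FPKM. The SD of the mock group was therefore a small part of the difference between the high libraries and mock, whereas the SDs of both plasmid groups were close to or above their distance from the mock mean.

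Ifit3 had 0.30, 0.14 and 0.43 FPKM in the mock libraries, 26.62, 0.06 and 23.78 FPKM in those of pEGFP-N1, 0.16, 0.18 and 0.25 FPKM in those of BX795, and 24.37, 0.13 and 0.19 FPKM in those of BX795 plus pEGFP-N1. Ifit3b followed at lower levels, with 0.16, 0.04 and 0.17 FPKM in mock, 8.84, 0.06 and 7.99 FPKM in the pEGFP-N1 libraries, 0.05, 0 and 0 FPKM with BX795, and 8.96, 0 and 0 FPKM in the BX795 plus pEGFP-N1 libraries. Both genes were high in the same 3 libraries as Ifit1, at 82.0 to 91.8 times the mock mean for Ifit3 and 64.8 to 72.6 times for Ifit3b, and a level listed at 0 in this table may stand for a failed estimate. Over all genes, 1 was at 0 in 1 library with at least 5 FPKM in the other 11.

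Ifit1bl1 was barely detected. The mock libraries had 0.03, 0.05 and 0 FPKM, the pEGFP-N1 libraries 0.11, 0.03 and 0.11 FPKM, the BX795 libraries 0, 0.03 and 0 FPKM, and the BX795 plus pEGFP-N1 libraries 0.08, 0 and 0.03 FPKM. Its 3 highest values fell in the 3 libraries with high Ifit1, but all lay under the minimum of 1 FPKM set for testing. The neighbour Ifit1bl2, which shares its start region with Ifit1, was at 0.34 to 0.48 FPKM in mock, 0.97, 0.48 and 1.07 FPKM in the pEGFP-N1 libraries, 0.36 to 0.56 FPKM with BX795, and 0.72, 0.37 and 0.48 FPKM in the BX795 plus pEGFP-N1 libraries. It was therefore highest in the same 3 libraries, at 1.74 to 2.59 times the mock mean, against 479 or more for Ifit1.

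**Figure D2:**
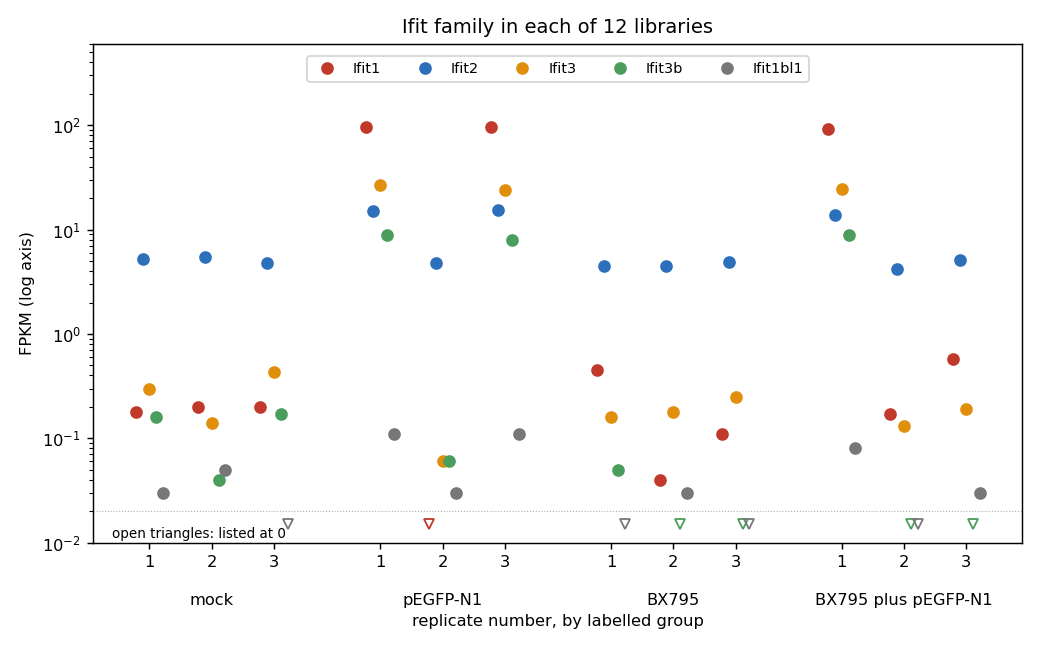
FPKM of the 5 members on a log axis in each of the 12 libraries, by labelled group and replicate number, with open triangles for values listed at 0. Replicates 1 and 3 of pEGFP-N1 and replicate 1 of BX795 plus pEGFP-N1 hold Ifit1 at 92.64 FPKM or more, and Ifit2 stays between 4.17 and 15.24 FPKM in all 12.

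Ordered by the median of a group, Ifit1 was highest in pEGFP-N1 (95.24 FPKM), then in BX795 plus pEGFP-N1 (0.57), mock (0.20) and BX795 (0.11). Ifit2 (15.19 FPKM in pEGFP-N1, 5.18 in mock, 5.12 in BX795 plus pEGFP-N1, 4.51 in BX795) and Ifit3 (23.78, 0.30, 0.19 and 0.18 FPKM in the same order of groups) placed mock second. No neighbours in these orders were separated, since their ranges overlapped for these members and for Ifit3b. Among the 4 members tested, 1 pair of groups did not overlap. Every BX795 library was below every pEGFP-N1 library for Ifit3b, which was true of 5.12% of the 10412 genes tested (the reverse held for 0 of 4 members and 7.87% of genes). That separation rested on 0.05 FPKM against 0.06 FPKM, levels too near 0 to be ranked, and nothing is read from it. Between BX795 plus pEGFP-N1 and mock, 0 of 4 members were separated upward (7.15% of genes) or downward (7.73%).

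The composition of the family differed between the high and low libraries. In the 3 libraries where Ifit1 was the highest member, the 5 members summed to 139.9 to 147.43 FPKM, of which Ifit1 made up 65.6% to 66.9%, Ifit3 16.7% to 18.1%, Ifit2 9.90% to 10.7% and Ifit3b 5.61% to 6.40%. In the other 9 libraries Ifit2 was the highest member, the sum was 4.47 to 5.91 FPKM, and Ifit2 made up 85.7% to 97.0% of it. The proportions were close among the 3 high libraries although 1 of them was labelled as treated with BX795. Across these 3 the highest level was 1.04 (Ifit1) to 1.12 (Ifit3b) times the lowest for the 4 tested members, and Ifit1bl1, near 0, was at 0.08 to 0.11 FPKM.

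Ifit3b made up 24.9% to 26.9% of the sum of Ifit3 and Ifit3b in the 3 high libraries, where that sum was 31.77 to 35.46 FPKM. In the other 9 libraries the sum was 0.12 to 0.60 FPKM and the share of Ifit3b ran from 0% to 50%, at levels where the division between the pair cannot be read.

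**Figure D3:**
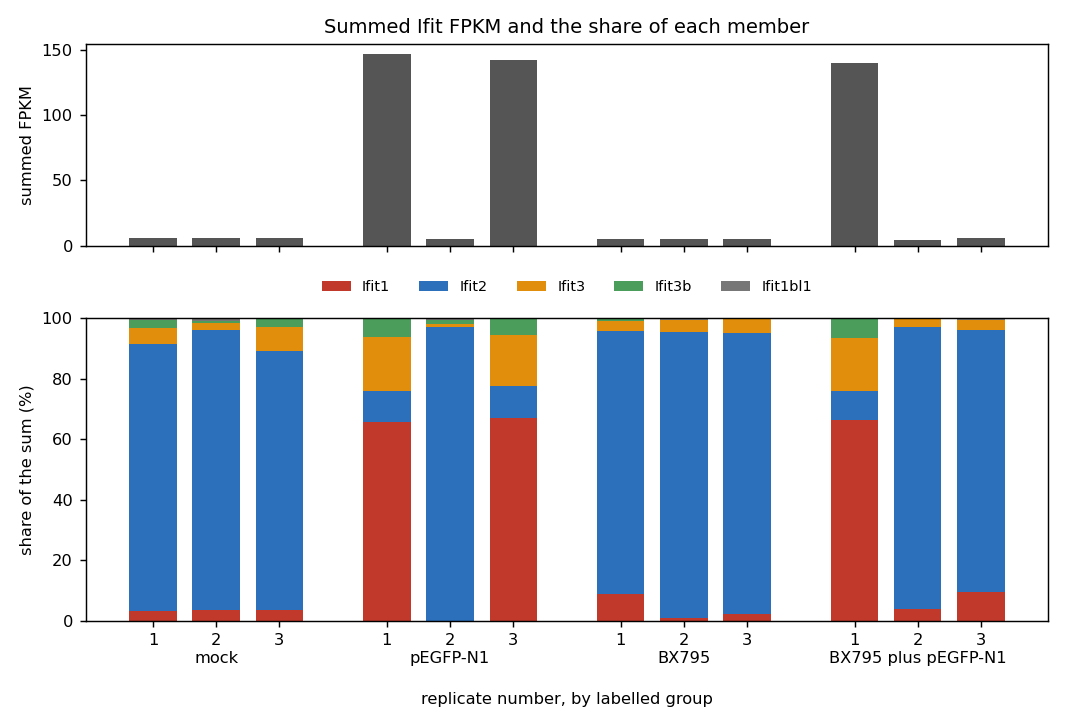
The upper bars give the summed FPKM of the 5 members in each library and the lower bars the share of each member in that sum, in percent. Ifit1 makes up 65.6% to 66.9% in the 3 libraries with sums of 139.9 FPKM or more, and Ifit2 makes up 85.7% to 97.0% in the other 9.

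Read against the mock mean on the scale log2(FPKM + 1), 4 of the 4 tested members were higher by at least 1 in pEGFP-N1 replicate 1, as were 0.768% of the 10412 genes tested. The count was 4 of 4 in pEGFP-N1 replicate 3 (0.759% of genes) and 4 of 4 in the library labelled BX795 plus pEGFP-N1 replicate 1 (0.816%). It was 0 of 4 in the library labelled pEGFP-N1 replicate 2 (0.288%), in BX795 replicates 1 to 3 (0.24%, 0.259% and 0.307%) and in BX795 plus pEGFP-N1 replicates 2 and 3 (0.259% and 0.499%). Ifit1, Ifit3 and Ifit3b reached 1 FPKM in exactly 3 libraries, the number needed to be tested, so they were tested only because those libraries were high, and these counts describe the libraries and do not weigh as support. Within each high library the order of the differences was the same. In pEGFP-N1 replicate 1 it was 6.35 for Ifit1, 4.43 for Ifit3, 3.13 for Ifit3b and 1.40 for Ifit2. The added 1 FPKM makes the changes of low genes look smaller on this scale.

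The comparison of pEGFP-N1 with mock asks how the family differs after transfection with plasmid. In limma across all 12 libraries, the difference in log2(FPKM + 1) was 4.14 for Ifit1 (SE 1.77, 95% interval 0.28 to 8.01), 0.91 for Ifit2 (SE 0.41), 2.81 for Ifit3 (SE 1.26) and 2.02 for Ifit3b (SE 0.90). None passed an adjusted p of 0.05 (limma adjusted p 0.9946 for Ifit1 and 0.9997 for the others), against 0.0672% of all genes tested, and the unadjusted p-values were 0.0377, 0.0463, 0.0468 and 0.0455, under 0.05 as in 4.69% of genes. The two-sided exact permutation p was 0.4, 0.3, 0.4 and 0.3 in that order, where 3 against 3 libraries cannot go below 0.1. For the sum of Ifit3 and Ifit3b the difference was 2.97 (SE 1.37, limma adjusted p 0.9997). The library labelled pEGFP-N1 replicate 2 lay below every mock library for Ifit1 and Ifit3 and within the mock range for Ifit2 and Ifit3b, so 0 of 4 had all pEGFP-N1 libraries above all mock libraries (5.52% of genes) or all below (7.41%). For Ifit1, Ifit3 and Ifit3b the levels of that library and of mock were too near 0 to be ranked.

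Without the 2 libraries that stood against their labels, the pEGFP-N1 libraries left were replicates 1 and 3. The difference from mock became 6.34 for Ifit1 (SE 0.15, limma adjusted p 1.12e-09), 1.40 for Ifit2 (SE 0.088, 2.16e-06), 4.35 for Ifit3 (SE 0.11, 1.37e-09), 3.07 for Ifit3b (SE 0.10, 8.75e-09) and 4.62 for the sum of the pair (SE 0.13, 1.82e-09), in a fit where 3.76% of genes passed. Those libraries were set apart by interferon-induced genes, which include these, so the p-values are not independent of that choice. Moreover, Ifit1, Ifit3 and Ifit3b were tested only because the high libraries passed the filter.

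BX795 alone was compared with mock to see whether the inhibitor moves the family without plasmid. No difference was detectable. It was -0.0072 for Ifit1 (SE 1.77), -0.12 for Ifit2 (SE 0.41), -0.10 for Ifit3 (SE 1.26) and -0.14 for Ifit3b (SE 0.90), and the adjusted p from limma was 0.999, 0.897, 0.976 and 0.951 in that order. The adjusted test passed 0.0672% of all genes, and 13.8% had an unadjusted p under 0.05. The 95% intervals were wide, from -1.02 to 0.77 for Ifit2 and from -3.87 to 3.86 for Ifit1, because the 2 libraries above enter the shared estimate of the spread. Of these members, 0 of 4 had BX795 libraries all below mock (16.2% of genes) or all above (23.6%). Without the 2 libraries the 4 differences had the same values and none passed, while 14.1% of genes did.

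The plasmid was also compared with no plasmid in the presence of BX795. The difference of BX795 plus pEGFP-N1 from BX795 was 2.23 for Ifit1 (SE 1.77), 0.47 for Ifit2 (SE 0.41), 1.44 for Ifit3 (SE 1.26), 1.08 for Ifit3b (SE 0.90) and 1.56 for the sum of the pair (SE 1.37), with limma adjusted p-values of 0.629 to 0.645. The adjusted test called 0 of 10412 genes (0%), and 579 (5.56%) had an unadjusted p under 0.05. All of these differences rested on the library labelled BX795 plus pEGFP-N1 replicate 1. Without it and the library labelled pEGFP-N1 replicate 2 they were 0.19 for Ifit1, 0.00055 for Ifit2, -0.045 for Ifit3, -0.023 for Ifit3b and -0.065 for the sum, and 0% of genes passed. With replicate 1, 0 of 4 members had all its group above BX795 (4% of genes) or all below (6.66%).

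The comparison of BX795 plus pEGFP-N1 with pEGFP-N1 asks whether the inhibitor lowers the family in transfected cells. The difference was -1.92 for Ifit1 (SE 1.77), -0.57 for Ifit2 (SE 0.41), -1.47 for Ifit3 (SE 1.26) and -1.08 for Ifit3b (SE 0.90), each with a limma adjusted p of 0.959. The adjusted test called 0 of 10412 genes (0%), and 166 (1.59%) had an unadjusted p under 0.05. Members with all libraries of the first group below those of the second numbered 0 of 4 (1.41% of genes), as did those with all above (1.39%). Without the same 2 libraries the difference was -6.16 for Ifit1 (SE 0.17, limma adjusted p 3.31e-09), -1.53 for Ifit2 (SE 0.097, 2.52e-06), -4.50 for Ifit3 (SE 0.12, 3.31e-09), -3.23 for Ifit3b (SE 0.11, 1.45e-08) and -4.90 for the sum of the pair (SE 0.14, 4.36e-09), in a fit where 18.1% of genes passed, with the same limit on these p-values. The effect of plasmid without BX795 minus its effect with BX795 was 1.92 for Ifit1 (SE 2.50) with all 12 libraries, and the limma adjusted p was 0.864, as 0% of genes passed. Leaving out the 2 libraries, it was 6.15 for Ifit1 (SE 0.21, limma adjusted p 5.36e-08), 1.40 for Ifit2 (7.68e-05), 4.39 for Ifit3 (5.36e-08) and 3.09 for Ifit3b (3.61e-07), where 1.27% of genes passed, again with that limit. The comparisons of pEGFP-N1 with mock and of BX795 plus pEGFP-N1 with pEGFP-N1 share the pEGFP-N1 libraries.

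**Figure D4:**
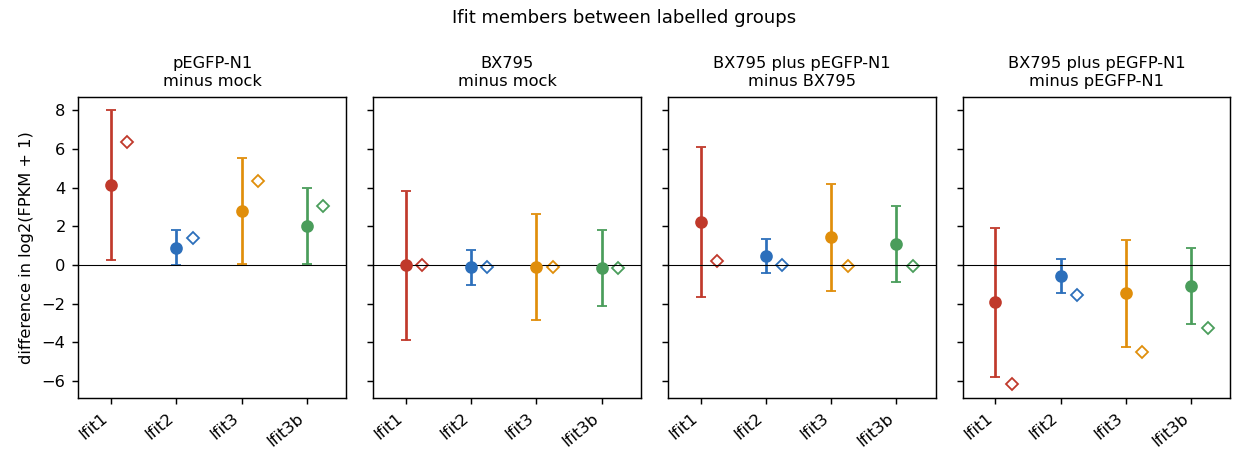
Differences in log2(FPKM + 1) of the 4 tested members in the 4 comparisons, with all 12 libraries (filled circles, with 95% intervals from limma) and without the library labelled pEGFP-N1 replicate 2 and the library labelled BX795 plus pEGFP-N1 replicate 1 (open diamonds). For Ifit1 the difference of pEGFP-N1 from mock is 4.14 with all libraries and 6.34 without those 2, and that of BX795 plus pEGFP-N1 from pEGFP-N1 is -1.92 and -6.16.

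Among the genes upstream of the family, the ligands were hardly detected. Of 17 type I interferon genes, 7 were listed and 1, Ifnz, was tested, and it passed in 0 of the 4 comparisons. Ifnb1, the first interferon that fibroblasts make, was at 0 FPKM in mock, 0.08, 0 and 0.08 FPKM in the pEGFP-N1 libraries, 0, 0 and 0.16 FPKM with BX795, and 0.08, 0 and 0 FPKM in the BX795 plus pEGFP-N1 libraries. The genes for the receptor chains and their kinases were present in every library, with Ifnar1 at 9.13 to 12.51 FPKM, Ifnar2 at 24.38 to 33.39 FPKM, Jak1 at 40.8 to 52.03 FPKM and Tyk2 at 4.75 to 8.25 FPKM. None of these 4 passed in any of the 4 comparisons with all 12 libraries, where 0% to 0.0672% of all genes passed. Without the 2 libraries that stood against their labels, Ifnar2 (0.31, limma adjusted p 0.00967) and Tyk2 (0.39, limma adjusted p 0.00655) were higher with BX795 than in mock (2 of 4, against 14.1% of all genes), and Ifnar2 was higher in BX795 plus pEGFP-N1 than in pEGFP-N1 (0.28, limma adjusted p 0.0290), as 1 of 4 against 18.1% of genes.

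Of 5 transcription factors of the pathway, 1 rose with pEGFP-N1 and 0 fell, and 0 passed in the other 3 comparisons, with all 12 libraries (0.0672% of all genes passed with pEGFP-N1). In the fit without the 2 libraries, 4 were higher with pEGFP-N1 than in mock (3.76% of genes passed), 2 rose and 1 fell with BX795 (14.1%), 0 passed between BX795 plus pEGFP-N1 and BX795 (0%), and 4 were lower in BX795 plus pEGFP-N1 than in pEGFP-N1 (18.1%). Irf1, a factor that binds the same kind of element, was at 12.70 to 14.92 FPKM in mock and 22.67 to 28.69 FPKM in the pEGFP-N1 libraries, including 22.67 FPKM in the library labelled pEGFP-N1 replicate 2. Its difference was 0.91 (SE 0.12, limma adjusted p 0.0265), and the call was kept in 4 of the 12 fits that left out a library. The adjusted p of Irf1 reached 0.242 in the others, which were those without any mock library, pEGFP-N1 replicate 1 or 3, BX795 replicate 2 or 3, or BX795 plus pEGFP-N1 replicate 2. Irf1 was also at 21.70 to 24.56 FPKM with BX795 alone, where the Ifit genes were not high, and that difference of 0.73 did not pass with all 12 libraries (limma adjusted p 0.0755) and passed without the 2 (2.76e-04). Stat2 and Irf9, which encode factors that bind this element together, were high in the same 3 libraries as the Ifit genes. Stat2 was at 21.06, 6.79 and 20.61 FPKM in the pEGFP-N1 libraries and 19.54, 6.75 and 7.65 FPKM in the BX795 plus pEGFP-N1 libraries, against 5.12 to 5.87 FPKM in mock. Irf9 was at 7.85, 2.68 and 7.63 FPKM and at 7.42, 2.85 and 3.58 FPKM in those groups, against 3.52 to 3.90 FPKM in mock. Irf7, which amplifies interferon expression, was at 2.23, 1 and 2.07 FPKM in the pEGFP-N1 libraries and 0.65 to 0.81 FPKM in mock. Without the 2 libraries, the difference of pEGFP-N1 from mock was 1.75 for Stat2 (limma adjusted p 2.26e-07), 0.90 for Irf9 (1.40e-04), 0.86 for Irf7 (4.43e-04) and 1.01 for Irf1 (4.01e-05), while that of Irf2 was 0.01 (0.977). Stat2, Irf9 and Irf7 were high in the libraries that were kept and low in the one left out, so these p-values restate in part how that library was chosen. Between BX795 and mock, 2 groups that kept all their libraries, Stat2 differed by 0.36 (limma adjusted p 0.0125) and Irf9 by -0.34 (0.0209) in that fit. For BX795 plus pEGFP-N1 against pEGFP-N1 the differences were -1.42 for Stat2, -1.06 for Irf9, -1.11 for Irf7 and -0.35 for Irf1 (limma adjusted p 3.63e-06, 5.93e-05, 8.18e-05 and 0.0330), with the same limit. For Irf1 the difference was -0.12 with all 12 libraries (limma adjusted p 0.959).

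Of 4 feedback and modifier genes, 0 passed in any comparison with all 12 libraries, where 0% to 0.0672% of all genes passed. Isg15, the ubiquitin-like modifier, was at 151.74, 1.38 and 129.16 FPKM in the pEGFP-N1 libraries and 143.85, 3.39 and 5.15 FPKM in the BX795 plus pEGFP-N1 libraries, against 1.46 to 2.61 FPKM in mock, a pattern by library like that of Ifit1. Usp18, which removes Isg15 and dampens the receptor, was at 3.93, 0.26 and 3.61 FPKM in the pEGFP-N1 libraries and at 0.46 to 0.62 FPKM in mock. Socs3 was at 17.96 to 18.39 FPKM in mock and 9.30 to 9.56 FPKM with BX795, and its difference of -0.88 did not pass (limma adjusted p 0.136). It was at 17.19, 10.6 and 15.14 FPKM in the pEGFP-N1 libraries and 16.13, 9 and 9.24 FPKM in the BX795 plus pEGFP-N1 libraries. Socs1, an inhibitor of the kinases, was at 9.43, 6.32 and 10.41 FPKM in the pEGFP-N1 libraries, 10.56, 5.13 and 3.44 FPKM in the BX795 plus pEGFP-N1 libraries, 7.06 to 7.65 FPKM in mock and 5.1 to 6.5 FPKM with BX795. Its 3 highest values were in the 3 libraries with high Ifit1. Without the 2 libraries, the difference of pEGFP-N1 from mock was 5.53 for Isg15 (limma adjusted p 2.26e-07) and 1.63 for Usp18 (2.14e-06), and that of BX795 from mock was -0.88 for Socs3 (2.43e-05). All 4 genes were lower in BX795 plus pEGFP-N1 than in pEGFP-N1, by -4.76 for Isg15, -1.99 for Usp18, -1.06 for Socs1 and -0.76 for Socs3 (limma adjusted p 2.12e-06, 1.04e-06, 6.68e-04 and 5.93e-05). In that fit 18.1% of all genes passed. All 4 genes had levels in the 2 libraries that went against their labels, so these p-values of the plasmid groups are not independent of leaving them out.

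A list of 12 genes tied to what Ifit proteins recognise or bind (the cap methyltransferases Rnmt, Cmtr1, Cmtr2 and Pcif1, the Rnmt cofactor Ramac, the decapping exonuclease Dxo, the translation initiation subunits Eif3a, Eif3b, Eif3c and Eif3e, and the adaptors Mavs and Sting1) was tested in full. With all 12 libraries 0 passed in any of the 4 comparisons, where 0% to 0.0672% of all genes passed. The median difference of pEGFP-N1 from mock over the list was 0.01, beside -0.0026 over all genes tested. Eif3c, a subunit of the initiation factor that mouse Ifit1 and Ifit2 bind, lay between 213.06 and 230.79 FPKM in all 12 libraries. Cmtr1, which adds the cap methyl group that prevents Ifit1 binding, differed by 0.16 between pEGFP-N1 and mock without the 2 libraries (limma adjusted p 0.176). In that fit Pcif1 (0.35, limma adjusted p 0.00455), Dxo (0.28, 0.0238) and Eif3b (-0.22, 0.0465) passed between BX795 and mock, which is 3 of 12 where 14.1% of all genes passed, and Eif3b also passed for BX795 plus pEGFP-N1 against pEGFP-N1 (-0.35, 0.0139), which is 1 of 12 where 18.1% of genes passed.

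**Figure D5:**
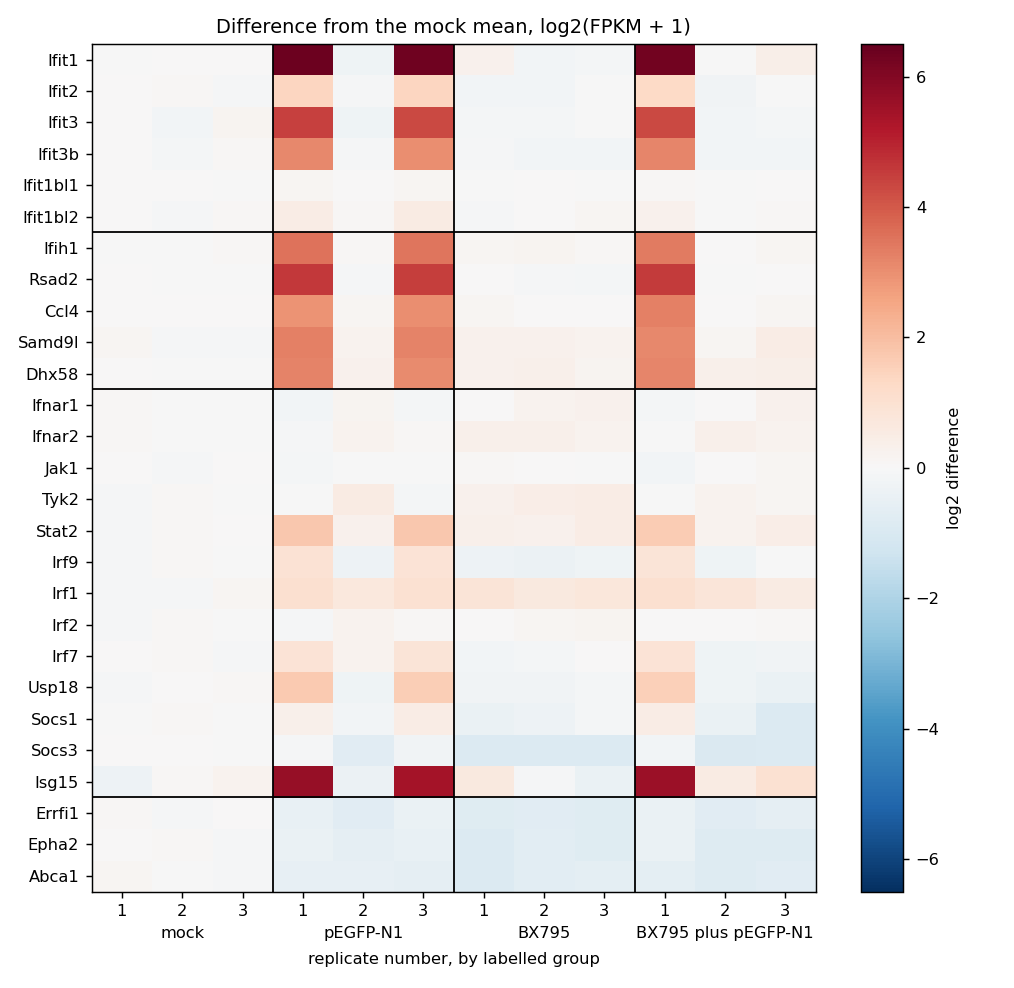
Difference of each library from the mock mean in log2(FPKM + 1), by labelled group and replicate number, for the Ifit genes (top block, with Ifit1bl2), the 5 genes nearest to them in profile, pathway genes, and 3 genes that fell with BX795 (bottom block). Ifit1 is higher by 6.29 or more, and Stat2 by 1.66 or more, in replicates 1 and 3 of pEGFP-N1 and replicate 1 of BX795 plus pEGFP-N1, while Irf1 is higher than the mock mean in every library outside the mock group.

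The genes whose profiles lay nearest to the mean profile of the 4 tested members, measured as the root mean square difference of centred log2(FPKM + 1) over the 12 libraries, were Ifih1 (0.22), Rsad2 (0.38), Ccl4 (0.39), Samd9l (0.39) and Dhx58 (0.42). Ifih1, which encodes the RNA sensor MDA5, was at 13.01, 0.25 and 12.51 FPKM in the pEGFP-N1 libraries, 11.44, 0.23 and 0.32 FPKM in the BX795 plus pEGFP-N1 libraries and 0.16 to 0.24 FPKM in mock. Rsad2, which encodes viperin, was at 25.05, 0.02 and 23.25 FPKM, then 24.22, 0.08 and 0.11 FPKM, and 0.05 to 0.12 FPKM in the same groups. Ccl4, a chemokine, was listed at 0 in every mock library and was at 6.51, 0.09 and 7.23 FPKM with pEGFP-N1. Dhx58 encodes the RNA sensor LGP2. The likeness was measured on these same libraries and is a description, with no function read from it.

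Genes around the cluster did not share its pattern at the same size. Within 500 kb of the cluster, 5 genes outside it were tested and 0 passed in any comparison with all libraries (0% to 0.0672% of all genes passed). Stambpl1, a deubiquitinase gene, was at 20.39, 16.35 and 19.94 FPKM in the pEGFP-N1 libraries and 19.36, 13.56 and 15.91 FPKM in the BX795 plus pEGFP-N1 libraries, against 15.13 to 16.23 FPKM in mock. It was thus highest in the 3 libraries with high Ifit1, and without the 2 libraries its difference of pEGFP-N1 from mock was 0.33 (limma adjusted p 0.0254). Lipa, a lysosomal lipase gene 23.2 kb from the cluster, ran the other way by library, at 23.32, 33.43 and 21.87 FPKM in the pEGFP-N1 libraries and 22.73, 26.96 and 28.57 FPKM in the BX795 plus pEGFP-N1 libraries, and none of its differences passed with or without the 2 libraries. Fas, the death receptor gene, was at 0.81, 1.92 and 0.78 FPKM in the pEGFP-N1 libraries and 0.40, 2.44 and 1.91 FPKM in the BX795 plus pEGFP-N1 libraries. It was at 0.39 to 0.69 FPKM in mock and 2.22 to 2.69 FPKM with BX795, a difference of 1.13 (limma adjusted p 0.183 with all libraries and 1.09e-04 without the 2). Kif20b, a mitotic kinesin gene, differed by 0.35 between BX795 and mock (0.337 with all libraries and 0.0135 without the 2). In the fit without the 2 libraries, Fas (0.82, limma adjusted p 0.00186) and Kif20b (0.53, 0.00359) were also higher in BX795 plus pEGFP-N1 than in pEGFP-N1, and Stambpl1 was lower (-0.43, 0.00399), which is 3 of 5 where 18.1% of all genes passed, and 2 of 5 passed between BX795 and mock, where 14.1% did. None of the 3 passed the comparison of BX795 plus pEGFP-N1 with pEGFP-N1 with all 12 libraries (limma adjusted p 0.959 each), and the left-out libraries opposed the direction for each, as with Kif20b at 20.35 FPKM in the library labelled pEGFP-N1 replicate 2 and 16.54 FPKM in the one labelled BX795 plus pEGFP-N1 replicate 1, so these calls depend on the choice of libraries. The fifth gene tested, Pank1, passed in none of the 4 comparisons in either fit.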

How the data were processed

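RNA-seq was available for 12 L929 libraries, 3 in each of 4 groups taken from the labels. The authors sequenced on a BGISEQ-500, aligned to GRCm38.p5 with Bowtie2 2.2.5, kept several alignments per read and estimated FPKM with RSEM; the deposited FPKM values have 2 decimals. The annotation and the use of strand are not given in the sources used here. Genes were named through RefSeq for 17450 of 17571 identifiers. Read depth is unknown: of 420 low values, 35.2% lay within 0.1 of a whole multiple of a gene's smallest value, so reads were not recovered.

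The 10412 genes at 1 FPKM or more in at least 3 libraries were tested as log2(FPKM + 1) with limma 3.58.1 (R 4.3.3; 4 group means, trend), with Benjamini-Hochberg adjustment over all of them, in place of the authors' Poisson test. The scripts were tested on simulated data. Python 3.11.15 and SciPy 1.17.1 gave exact permutation tests. Coding sequences were aligned with Biopython 1.88.

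Members, gene lists and tests were chosen with earlier results of these data known. Genes named were the members, Ifit1bl2, the pathway and partner lists, tested genes within 500 kb, the 5 nearest profiles and 3 genes that check the BX795 label. Alternatives were pseudocounts of 0.1 and 0.01, no filter, TPM, quantile normalization, no trend, the groups compared alone, a replicate block, and the libraries left out in turn or 2 together. Listed genes and the interaction of plasmid and BX795 were refitted without libraries after the data were seen. The EGFP transcript was not analysed here, and 1 gene of the pathway list is not reported here.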

Additional observations from a re-analysis of the deposited data

How the results depend on the processing

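Of 160 values of the members and the Ifit3 plus Ifit3b sum under 8 other settings, all 160 kept their direction and stayed short of an adjusted p of 0.05 in limma, and so did 235 of 240 values with 1 library left out. The log2 difference of pEGFP-N1 from mock ran from 4.07 to 5.05 for Ifit1 and 2.02 to 3.89 for Ifit3b over the 8 settings. With 1 library left out it ran from 3.04 to 6.34 for Ifit1, 0.66 to 1.40 for Ifit2, 1.996 to 4.35 for Ifit3, 1.46 to 3.07 for Ifit3b and 2.11 to 4.62 for the sum, highest without the library labelled pEGFP-N1 replicate 2. With pseudocounts of 0.1 and 0.01, 1 of 4 members was higher than the mock mean by at least 1 in BX795 plus pEGFP-N1 replicate 3, against 0, and with 0.01 so was 1 of 4 in BX795 replicate 1. With the pseudocount of 0.01, BX795 minus mock was -0.53 for Ifit1, -0.43 for Ifit3, -2.66 for Ifit3b and -0.78 for the sum, against -0.0072, -0.10, -0.14 and -0.21. The same pseudocount moved BX795 plus pEGFP-N1 minus pEGFP-N1 from -1.08 to -4.14 for Ifit3b, from -1.92 to -1.08 for Ifit1 and from -1.62 to -2.43 for the sum, and BX795 plus pEGFP-N1 minus BX795 to 3.93 for Ifit1 and 2.41 for Ifit3b. With 1 library left out, BX795 minus mock ran from -0.15 to 0.088 for Ifit1, turning to 0.088 without BX795 replicate 2 and 0.041 without replicate 3. BX795 plus pEGFP-N1 minus BX795 turned without the library labelled BX795 plus pEGFP-N1 replicate 1, and ran from -0.045 to 2.1997 for Ifit3, -0.023 to 1.63 for Ifit3b and -0.065 to 2.40 for the sum. BX795 plus pEGFP-N1 minus pEGFP-N1 ran from -4.12 to -0.80 for Ifit1, -1.06 to -0.27 for Ifit2, -3.01 to -0.66 for Ifit3, -2.18 to -0.52 for Ifit3b and -3.27 to -0.76 for the sum. It was farthest from 0 without the library labelled pEGFP-N1 replicate 2 (for Ifit3b, without the library labelled BX795 plus pEGFP-N1 replicate 1) and nearest without pEGFP-N1 replicate 1 (for Ifit1 and Ifit2, without BX795 plus pEGFP-N1 replicate 2).

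Without both libraries that stood against their labels, all 5 differences of pEGFP-N1 from mock passed (Ifit1 6.34, Ifit2 1.40, Ifit3 4.35, Ifit3b 3.07, sum 4.62), as did all 5 of BX795 plus pEGFP-N1 from pEGFP-N1 (-6.16, -1.53, -4.50, -3.23 and -4.90), and those of BX795 plus pEGFP-N1 from BX795 turned to -0.045 for Ifit3, -0.023 for Ifit3b and -0.065 for the sum. Both libraries were set apart by interferon-induced genes, which include the members, so these passes are not independent of that choice. Ifit1, Ifit3 and Ifit3b were also tested only because the high libraries passed the filter. Calls over all genes became 391 (pEGFP-N1 minus mock), 1466 (BX795 minus mock) and 1886 (BX795 plus pEGFP-N1 minus pEGFP-N1), against 7, 7 and 0. Without the filter they were 2 for pEGFP-N1 minus mock, 1 for BX795 plus pEGFP-N1 minus BX795 and 2 for BX795 plus pEGFP-N1 minus pEGFP-N1. With only the groups compared they were 4 for pEGFP-N1 minus mock and 2150 for BX795 minus mock. With 1 library left out they ran from 0 to 17 and from 0 to 149 in those 2 comparisons, highest without the library labelled pEGFP-N1 replicate 2. The cause of these changes was not tested.

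Whether the replicate numbers pair the libraries was not clear. Mean correlations of same-numbered libraries across genes ran from 0.019 (mock with BX795 plus pEGFP-N1) to 0.353 (pEGFP-N1 with BX795 plus pEGFP-N1). For differently numbered libraries of these group pairs the means were -0.0095 and -0.204. The lowest single correlation of same-numbered libraries was -0.389 (pEGFP-N1 with BX795). With the replicate block the pEGFP-N1 difference of Ifit1 stayed 4.14 (limma adjusted p 0.713), and no call of a member changed. The depth is unknown, so levels near 0 FPKM, including most of Ifit1bl1 and Ifit3b outside 3 libraries, cannot be ranked.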
